A study of Bos taurus with 23 samples.

Results

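This account compares bovine blastocysts with in vivo oocytes on GeneChip bovine arrays, 3 arrays against 3 of the 23 in the series. The 6 arrays were taken by their titles, and every probe set that is no control was considered. Of 24016 such probe sets, 14571 lay above 4 on the log2 scale on at least 2 of the 23 arrays and were tested. The oocytes were matured in the cow and taken on day 0, the day of standing oestrus, from preovulatory follicles of 9 animals. The sample labels call the same oocytes cultured in vivo, and how many oocytes went into each pool is not given in the sources used here. The blastocysts were flushed from the uterus at day 7 or 8 after insemination of 7 animals with frozen and thawed semen of 1 Holstein-Friesian bull. They were pooled by 5, and the morulae that came from the same flushings were pooled by 10. Each array is labelled a biological replicate, but which animals fed which pool is not given, so p-values measure the spread between arrays. That spread was taken over all 8 groups of the series, not from these 6 arrays alone. Stage, donor animals, collection site and day of collection changed together and cannot be told apart in this comparison. Poly(A)+ RNA was measured, and pools of 5 embryos were set against pools of oocytes, so more cells of a type and more RNA per cell cannot be told apart.

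The mature oocyte is a single, transcriptionally silent cell that carries stored messenger RNA and protein made during its growth. After fertilisation these stores are used and destroyed, and in cattle the embryo's own genome takes over mainly around the 8-cell stage. The blastocyst is the first stage with separate tissues: an outer epithelium, the trophectoderm, which pumps fluid into a cavity, and an inner cell mass, from which the epiblast and the primitive endoderm form. In ruminants the trophectoderm secretes interferon tau and pregnancy-associated glycoproteins.

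The oocyte arrays and the blastocyst arrays lay apart. Pearson correlations were taken over all 24016 probe sets that are no controls, tested or not. Between oocyte and blastocyst arrays they were 0.740 to 0.764. Among the oocyte arrays they were 0.948 to 0.986, and among the blastocyst arrays 0.970 to 0.985. In vivo oocyte array 2 stood apart from the other oocyte arrays, and was closer to the in vitro oocytes than to its own group. It correlated at 0.979, 0.979 and 0.982 with the 3 in vitro oocyte arrays, against 0.948 and 0.969 with in vivo oocyte arrays 1 and 3. Those arrays correlated at 0.986 with each other and at 0.941 to 0.972 with the in vitro oocytes. Of 1287 genes that spanned more than 2 log2 units over the oocyte arrays, it was the farthest from the median in 1009. Of 29 cumulus and granulosa markers on the array, 16 lay above 4 there, against 10 and 11 on the other oocyte arrays and 10 to 12 on the blastocyst arrays. HSD17B1, a steroid enzyme of granulosa cells, read 1.70, 11.03 and 1.71 on the oocyte arrays and at most 1.71 on the blastocyst arrays. INHA, the inhibin alpha chain, read 2.18, 10.95 and 1.97 on the oocyte arrays. The summed signal of that list was 14.02 to 14.57 on the log2 scale in oocytes and 14.25 to 14.77 in blastocysts, and 11 and 16 of its genes were above 4 on no array of the group. Blastocyst array 1 alone carried LTF, a secreted uterine iron-binding protein, at 13.18, with TFF3 at 7.61 and AREG at 7.27. It was the farthest from the median in 266 of 463 genes that spanned more than 2 log2 units over the blastocyst arrays. The 3′ minus 5′ difference of the GAPDH control probe sets, a measure of RNA length, was 4.37 log2 units there, 2.96 and 2.52 on the other blastocyst arrays and 3.08 to 3.44 on the oocyte arrays. That of cyclophilin was 2.93 there, 2.61 and 2.15 on the other blastocyst arrays and 2.84 to 3.63 on the oocyte arrays, and that of EIF4E was 8.27 there and 8.38 to 8.61 on the other 5 arrays. The list of oviduct and uterine epithelium, with 17 genes on the array, summed to 15.3 to 15.4 in oocytes, where MSX1 made most of it at 15.19 to 15.32, and to 9.18 to 13.6 in blastocysts. Of 25 blood cell markers at most 4 were above 4 on any of the 6 arrays, with sums of 7.73 to 9.79 in oocytes and 7.52 to 7.98 in blastocysts, and of 12 sperm and testis markers 3 or 4, with sums of 10.3 to 10.7 and 10.7 to 11.3. Of the tested members of these 4 lists, 9, 1, 0 and 2 rose and 5, 4, 2 and 3 fell, in the same order. Without oocyte array 2, 3 of the cumulus genes fell, and without any 1 of oocyte array 1, blastocyst array 2 or blastocyst array 3, 1 of the blood cell genes fell. The part of such cells in the results was not tested beyond the values without these arrays, which are given where they change a count or a call.

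Most of the measured transcriptome differed between the stages. Of the 14571 probe sets tested, 9420 passed, which is 64.6%, with 4695 higher in the blastocyst (32.2%) and 4725 lower (32.4%). The test was limma's moderated test at a Benjamini-Hochberg adjusted p under 0.05, with the spread taken over all 8 groups of the series. Each gene was then read from its brightest probe set over all arrays, which gave 7070 genes. Of these, 4869 passed (68.9%), and 2560 were higher in the blastocyst (36.2%) and 2309 lower (32.7%). Against these shares each gene list below has to be read. The median difference over all genes was 0.08 on the log2 scale, and the median size among genes that passed was 2.66. The 3 blastocyst values and the 3 oocyte values did not overlap in 4997 genes (70.7%) and in 10029 probe sets (68.8%). Changes of at least 5 log2 units, counted with any array under 4 raised to 4 in the lower group, were reached by 329 genes that rose and 262 that fell.

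**Figure D1:**
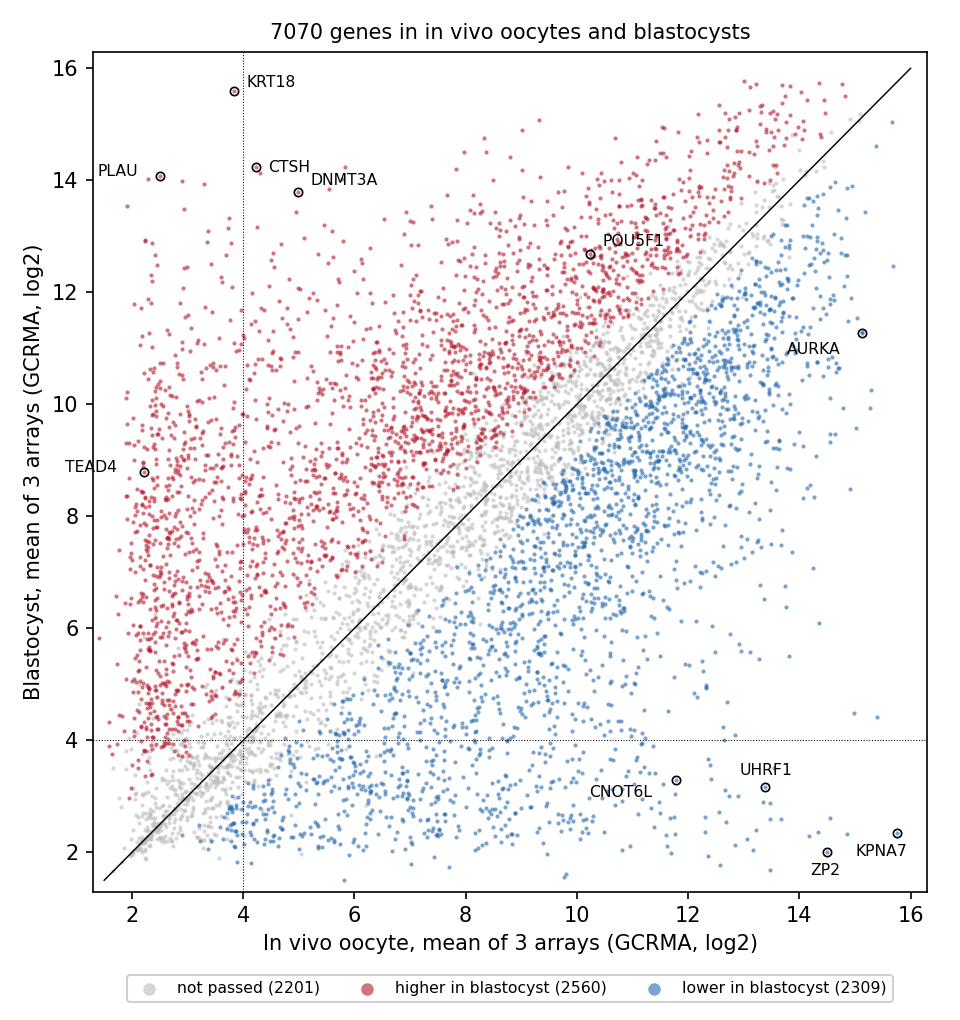
Mean of the 3 blastocyst arrays (vertical) against the mean of the 3 in vivo oocyte arrays (horizontal) for 7070 genes, in GCRMA log2 units. Red genes (2560) were higher and blue genes (2309) lower in the blastocyst at an adjusted p under 0.05, grey genes (2201) did not pass, dotted lines mark a value of 4, and circles mark 11 named genes.

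GCRMA normally brings the arrays to a common distribution, so each change is relative to the other transcripts on the array. The array's control probe sets gave a second scale. The poly-A controls, which are normally added before labelling, read 5.97, 8.61 and 7.75 on the oocyte arrays and 9.12, 8.40 and 8.43 on the blastocyst arrays. The hybridisation controls, normally added after it, read 10.9 to 11.3 and 11.3 to 11.7. Centring each array on both kinds of control, here called the spike-in scale, moved the median difference of all genes to -0.76. On that scale 1525 genes rose and 2670 fell, so that 36.4% of the calls were higher in the blastocyst, against 52.6% of the calls on the deposited scale. The poly-A controls alone moved the median to -1.13 and the hybridisation controls alone to -0.28. These scales assume that each array received equal amounts of control RNA, and the sources used here do not give those amounts. The poly-A controls also differed within the oocyte group, from 5.97 to 8.61. Which of the scales is nearer to the amount of RNA was not tested. Every gene named below as having risen or fallen kept its direction on each of these scales, and a call that was lost on one is named. The spike-in counts stand beside each list in which they differ from the deposited scale by more than 1.5 times.

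The largest falls were of abundant oocyte transcripts, among them those of a nuclear import receptor and of proteins of the egg coat. KPNA7, the nuclear import receptor of oocytes, read 15.71, 15.79 and 15.77 on the oocyte arrays and 2.28, 2.29 and 2.47 on the blastocyst arrays. That is at least 3461-fold lower, with a fitted fall of 13.41 ± 0.68 log2 units (value ± standard error, n = 3 and 3; limma adjusted p = 2.47e-12). Where an array of the lower group lay under 4, the fold here and below was computed with that group raised to 4 and is a lower bound. RGS16, a regulator of G-protein signalling, fell at least 1860.3-fold, and GSTM3, a glutathione transferase, fell at least 1504-fold. The others among the 12 largest falls were ZP2, ZP4, GFI1, SRPX, ID3, TSPAN7, MOS, ALG13 and TMEM163, from at least 1445-fold for ZP2 to at least 709-fold for TMEM163. SRPX was still at 7.88 on blastocyst array 1 and under 4 on the other arrays of that group.

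The largest rises were led by epithelial and secreted products. KRT18, a keratin of simple epithelia and of the trophectoderm, read 2.14, 7.19 and 2.15 on the oocyte arrays and 15.61, 15.60 and 15.56 on the blastocyst arrays. Oocyte array 2 was the only oocyte array above 4, and the groups did not overlap. The rise was at least 1477-fold (limma adjusted p = 2.97e-06). PLAU, the urokinase plasminogen activator, read 2.51, 2.49 and 2.53 and then 13.86, 14.38 and 13.97, which is at least 1077-fold higher. SLC2A5, the fructose transporter, read 2.87, 2.91 and 2.90 and then 12.88, 14.41 and 14.67, which is at least 1015-fold higher. Lysosomal cathepsins were among these genes, with CTSL at least 716-fold higher. CTSH read 4.21, 4.23 and 4.24 and then 14.13, 14.25 and 14.31, and since its oocyte values lay at the lowest level of that probe set on any array, its fold of at least 1026 is a lower bound too. CLDN6, a tight junction claudin, read 3.19, 3.18 and 3.50 and then 13.09, 14.38 and 14.34. The others of the 12 largest rises were PLAC8A, ANXA8L1, S100A14, FOLR3, XPNPEP2 and CD48. Blastocyst array 1 was the lowest of its group for SLC2A5, CLDN6 and CTSL, yet lay above every oocyte array for each of them.

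Genes of the egg coat and of oocyte growth factors fell. Of 6 tested zona pellucida and oocyte growth factor genes, 5 fell and 0 rose, with a median difference of -10.15. ZP2, ZP3 and ZP4 encode coat proteins of the egg. ZP2 read 14.62, 14.36 and 14.51 in oocytes and 1.89, 2.11 and 2.00 in blastocysts. ZP3 read 14.40, 10.52 and 13.75 and then 3.20, 2.83 and 3.01. ZP4 read 14.91, 13.67 and 14.44 and then 2.16, 2.69 and 2.23. Every oocyte value of the 3 lay above 10 and every blastocyst value under 4. The oocyte growth factors behaved alike: GDF9 read 13.10, 11.43 and 12.52 and then 1.90, 1.94 and 1.95 (at least 327-fold lower), and BMP15 11.50, 11.69 and 12.07 and then 2.22, 2.49 and 2.29 (at least 216-fold lower). For ZP3, ZP4 and GDF9, oocyte array 2 was the lowest oocyte array.

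**Figure D2:**
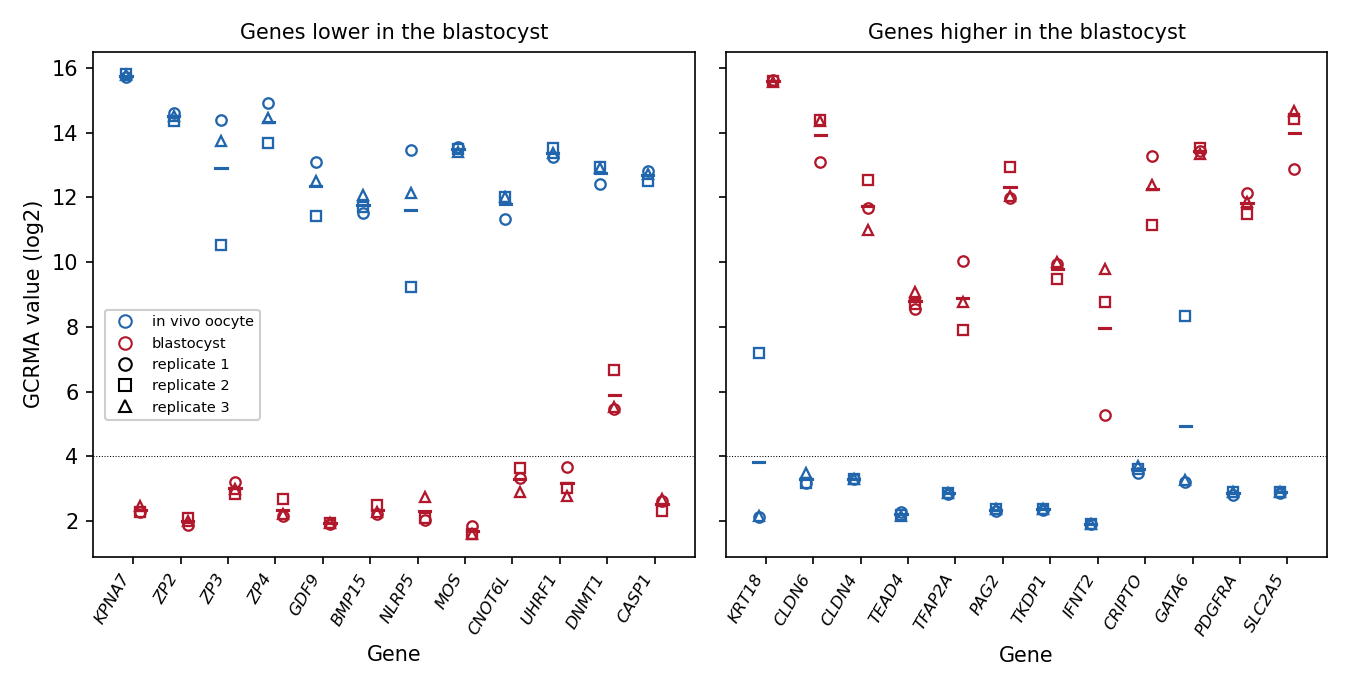
GCRMA log2 value on each of the 3 in vivo oocyte arrays (blue) and 3 blastocyst arrays (red) for 12 genes that fell (left) and 12 that rose (right); symbols mark the replicate number, short lines the group means and the dotted line a value of 4. The groups of all 24 chosen genes are separate, as were those of 70.7% of all 7070 genes. Oocyte array 2 (blue squares) stands apart for ZP3, NLRP5, KRT18 and GATA6.

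Maternal-effect genes, whose products the egg supplies for the first divisions, gave 5 falls and 0 rises among 6 tested (median -8.68). NLRP5 and OOEP encode parts of the subcortical complex of the egg. NLRP5 read 13.45, 9.22 and 12.14 and then 2.04, 2.11 and 2.76, a fall of at least 194-fold, and OOEP fell 26.2-fold. UCHL1, an abundant ubiquitin hydrolase of the egg, fell 317-fold, and MAEL, a factor that silences transposons in germ cells, fell at least 203-fold. GTSF1, another germ cell silencing factor, read 11.05, 7.21 and 9.97 and then 7.76, 8.52 and 9.18 and did not pass (adjusted p = 0.252). Without oocyte array 2 its difference was -2.02 log2 units (limma adjusted p = 0.00269). All 6 tested genes of meiosis and its arrest fell (median -3.07). MOS, the kinase that holds the egg at metaphase II, read 13.56, 13.49 and 13.39 and then 1.85, 1.61 and 1.61, which is at least 714-fold lower (adjusted p = 1.44e-10). MSH5, a meiotic recombination protein, fell at least 78-fold, and SYCP3, of the synaptonemal complex, 7.47-fold. Without oocyte array 3, 4 of the 6 meiosis genes passed.

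Of 21 tested factors of maternal mRNA storage and decay, 10 fell and 5 rose (median -0.78; 2 rose and 11 fell on the spike-in scale). CNOT6L, the deadenylase that acts on maternal messages at egg maturation, fell at least 221-fold. CPEB4, which binds the cytoplasmic polyadenylation element, fell 53.8-fold, and CNOT7, a further deadenylase, 6.52-fold. Decay factors that bind AU-rich elements went opposite ways: ZFP36L2 read 2.50, 4.25 and 3.69 and then 10.53, 9.84 and 10.04, a rise of at least 66.3-fold, while ZFP36L1 fell by 1.96 ± 0.47 log2 units (adjusted p = 0.00121).

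Some genes lay on opposite sides of 4 in the 2 groups, which does not by itself require a call. Above 4 on all blastocyst arrays and on no oocyte array were 513 genes (7.26%) and 1298 probe sets (8.91%). The reverse held for 334 genes (4.72%) and 927 probe sets (6.36%). The test, on the values that chose these sets, was passed by 509 of the first set and 328 of the second, so that 4 and 6 genes lay on opposite sides of 4 without a call. Of the 513 genes above 4 in the blastocyst alone, 404 were above 4 on all 3 morula arrays, 28 on none, and 218 on all 4 arrays of the 8-cell stage. Of the 334 above 4 in the oocyte alone, 274 were above 4 on no morula array, 7 on all of them, and 111 on all 8-cell arrays. Over all 7070 genes, 78.9% were above 4 on all morula arrays, 13.7% on none and 73.4% on all 8-cell arrays. The first set was thus near the background for presence on all morula arrays (78.8%), and 5.46% of it lay on none. In the second set 82.0% lay on none and 2.10% on all of them. Blastocyst against morula uses the same 3 blastocyst arrays, as does every morula or in vitro oocyte comparison below. UPP1, uridine phosphorylase, read 2.02, 2.04 and 2.04 in oocytes, 2.09, 2.05 and 2.05 in morulae and 9.32, 8.07 and 10.41 in blastocysts. MYC, a growth-promoting transcription factor, read 2.51, 2.55 and 2.53, 2.61, 3.24 and 2.60 and 7.15, 6.94 and 7.18 in the same order, with an 8-cell mean of 10.52. CDH2, N-cadherin, read 3.15, 3.24 and 3.25, 3.46, 3.28 and 3.72 and 7.14, 6.52 and 6.09. MEG3, a maternally expressed imprinted RNA, read 2.77, 2.88 and 2.88, 2.94, 2.87 and 3.01 and 7.56, 4.85 and 6.94. None of the 3 oocyte or 3 morula values reached 4 in these 4 genes. Conversely CSF1R, the receptor of the growth factor CSF1 and also a macrophage marker, read 8.49, 4.94 and 7.44 in oocytes, 4.79, 7.76 and 6.24 in morulae and 2.76, 3.05 and 2.48 in blastocysts.

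Most trophectoderm regulators rose. Of 14 tested, 10 rose and 2 fell, with a median difference of 3.80. TEAD4, a DNA-binding partner of YAP, read 2.28, 2.19 and 2.17 and then 8.56, 8.72 and 9.09, which is at least 27.7-fold higher (adjusted p = 2.01e-13). TFAP2A, an AP-2 transcription factor of trophoblast, read 2.85, 2.87 and 2.87 and then 10.05, 7.90 and 8.76. ETS2, which activates the interferon tau promoter, read 1.93, 1.96 and 1.96 and then 10.03, 9.86 and 8.04. No blastocyst value of these 3 genes lay under 7.90, and no oocyte value reached 4. DAB2, an endocytic adaptor of trophectoderm and endoderm, rose 164-fold, and GRHL1, a grainyhead epithelial factor, 85.3-fold. PPARG, a nuclear receptor that later acts in trophoblast, fell at least 47.8-fold. The largest change of the list was the fall of ID3, which is also counted among the signalling genes below. Its difference was -11.08 log2 units, against 7.36 for the largest rise of the list. ASCL2, needed for the ectoplacental lineage, rose by 1.70 ± 0.27 log2 units (adjusted p = 1.51e-05), and the rise did not pass on the spike-in scale or with the poly-A controls alone. TFAP2A and ASCL2 also passed blastocyst against morula (adjusted p = 8.46e-05 and 0.00021), ASCL2 not on the spike-in scale (adjusted p = 0.22). CDX2, GATA2, GATA3 and TFAP2C were not analysed here.

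Ruminant trophoblast products gave 10 rises and 1 fall among 15 tested, of 39 on the array (median 4.50). The others did not lie above 4 on at least 2 of the 23 arrays and were left out. A gene under 4 on all oocyte arrays was tested only if other arrays were above 4. The counts and the median therefore favour rises and do not describe the whole list. The spike-in scale gave 2 falls, as did the fit without oocyte array 2. PAG2, a pregnancy-associated glycoprotein, read 2.32, 2.37 and 2.36 and then 11.99, 12.92 and 12.03, at least 318-fold higher. TKDP1, a Kunitz-domain protein of trophoblast, read 2.36, 2.37 and 2.38 and then 9.93, 9.47 and 10.00, at least 55.8-fold higher. IFNT2, interferon tau, read 1.90, 1.92 and 1.92 and then 5.29, 8.78 and 9.80, at least 15.5-fold higher (adjusted p = 7.84e-07). No oocyte value of these 3 genes reached 4, and blastocyst array 1 was the lowest of its group for IFNT2. SSLP1, a secreted conceptus protein, rose at least 235-fold. Enzymes of prostaglandin and steroid synthesis moved as well: PTGS2, prostaglandin synthase 2, rose 22.6-fold, and HSD3B1, which makes progesterone, at least 50.2-fold. STAR, which carries cholesterol into mitochondria, read 13.55, 13.56 and 13.71 and then 10.35, 10.15 and 10.02, a fall of 10.8-fold. SSLP1, TKDP1, PTGS2 and HSD3B1 were higher in the blastocyst than in the morula (adjusted p = 1.19e-06, 8.67e-06, 0.000158 and 0.000442), and STAR was higher there too (7.19 in morulae, adjusted p = 0.000534). PTGS2, STAR and HSD3B1 are also cumulus and granulosa markers, and HSD3B1 read 6.88 on oocyte array 2.

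Genes of pluripotency and the inner cell mass gave 7 rises and 3 falls among 14 tested (median 1.57). CRIPTO, the NODAL co-receptor of the epiblast, read 3.49, 3.61 and 3.69 and then 13.29, 11.15 and 12.37, which is at least 308-fold higher (adjusted p = 6.01e-13). It was also higher in the blastocyst than in the morula (mean 6.77, adjusted p = 2.97e-08). POU5F1, the OCT4 factor, was present at both stages, with 9.85, 10.55 and 10.32 in oocytes and 12.32, 12.80 and 12.91 in blastocysts, a rise of 5.42-fold (adjusted p = 0.00012) that did not pass with the poly-A controls alone. SOX2, its partner, read 7.95, 8.26 and 9.48 and then 7.75, 7.97 and 7.76 and did not pass (adjusted p = 0.168), though on the spike-in scale it was lower in the blastocyst (adjusted p = 0.0251). KLF5 and KLF4, Kruppel-like factors of the inner cells, rose 25.1-fold and 7.2-fold. STAT3, the transducer of LIF signals, fell 15.2-fold, and FBXO15, an OCT4 target in mouse stem cells, 16.6-fold. NANOG was not analysed here.

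Primitive endoderm genes gave 9 rises and 0 falls among 18 tested (median 1.81; 7 rose and 2 fell on the spike-in scale). Without oocyte array 3, 1 of them fell. PDGFRA, the PDGF receptor of that lineage, read 2.81, 2.90 and 2.89 and then 12.12, 11.48 and 11.85, at least 225-fold higher. GATA6, its early transcription factor, read 3.21, 8.35 and 3.26 and then 13.43, 13.51 and 13.35, at least 253-fold higher. APOA1, a secreted apolipoprotein, rose at least 424-fold and passed against morula (mean 7.79, adjusted p = 1.4e-05). FN1, fibronectin, rose 70.4-fold and SPARC, a collagen-binding glycoprotein, at least 36.4-fold. GATA4, which acts after GATA6, read 3.25, 5.65 and 3.01 and then 2.95, 2.87 and 3.30 and did not pass (adjusted p = 0.128). It was lower in the blastocyst on the spike-in scale (adjusted p = 0.0135) and without oocyte array 3 (adjusted p = 0.0326). The oocyte reading of GATA6 above 4, like that of GATA4, was on array 2, the one with granulosa markers.

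Epithelial junction genes rose more often than they fell. Of 35 tested genes of junctions and polarity, 20 rose and 8 fell (median 1.60). CLDN4, a tight junction claudin, read 3.30, 3.31 and 3.31 and then 11.68, 12.53 and 10.98, at least 212-fold higher. DSC2, a desmosomal cadherin, rose at least 359.8-fold and was higher than in the morula (adjusted p = 4.87e-05). JUP, plakoglobin of desmosomes and adherens junctions, rose at least 87.3-fold, PRKCZ, an atypical protein kinase C of the apical complex, at least 99.6-fold, and TJP3, a tight junction scaffold, at least 30.6-fold. CDH3, P-cadherin, read 10.35, 10.77 and 10.35 and then 2.84, 2.27 and 2.00, which is at least 89.8-fold lower, while CDH2 rose at least 5.99-fold. CLDN10 fell by 3.20 ± 0.54 log2 units and was lower in the blastocyst than in the morula, where it read 11.71 (adjusted p = 7.64e-05). Each of these genes kept its call on the spike-in scale.

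Keratin and actin cortex genes rose in 37 of 54 cases and fell in 5 (median 2.21; 25 rose and 5 fell with the poly-A and hybridisation controls, 20 and 6 with the poly-A controls alone). KRT8, the partner keratin of KRT18, read 2.57, 2.84 and 2.87 and then 8.47, 6.74 and 5.12, at least 6.84-fold higher. KRT19 was already present in oocytes at 9.80, 5.16 and 8.52 and reached 14.14, 14.10 and 14.37. ANXA1, ANXA2 and ANXA6, annexins that bind membranes in the presence of calcium, rose at least 465-fold, 49.1-fold and at least 126-fold. TPM4, a tropomyosin, rose 85.4-fold, and ACTB, cytoplasmic actin, 9.01-fold. Extracellular matrix and integrin genes gave 19 rises and 7 falls among 33 (median 1.56; 12 and 9 with the poly-A controls alone). TIMP1, an inhibitor of matrix metalloproteinases, rose 135-fold. Within basement membranes NID1, nidogen 1, rose 61.9-fold and NID2, nidogen 2, fell 39.3-fold. PLAUR, the receptor of the urokinase that rose as PLAU, fell 115-fold, and VCAN, a proteoglycan of the cumulus matrix, at least 36.3-fold.

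Transport genes that serve the cavity rose and fell. Of 23 tested genes of blastocoel ion and water transport, 13 rose and 6 fell (median 1.67; 8 and 7 with the poly-A controls alone). AQP3, a water and glycerol channel, read 7.26, 5.52 and 5.58 and then 11.77, 13.00 and 13.04, 89.5-fold higher. Beta subunits of the sodium pump went opposite ways: ATP1B3 read 10.32, 7.60 and 9.12 and then 15.03, 14.85 and 14.81, 59-fold higher, and ATP1B1 fell 5.41-fold. SLC9A3, a sodium-proton exchanger of apical membranes, rose at least 29.2-fold and was near background in morulae (3.29, adjusted p = 7.8e-08). NHERF1, its scaffold, rose 38.8-fold, and CA2, carbonic anhydrase 2, fell 97.9-fold. Among chloride cotransporters SLC12A4 rose at least 14-fold and SLC12A2 fell 12.4-fold.

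Nutrient transporters gave 19 rises and 7 falls among 33 tested (median 1.53; 12 and 7 on the spike-in scale). SLC2A1, the basal glucose transporter, rose 22.7-fold. SLC5A1, which takes up glucose with sodium, read 11.33, 12.26 and 12.21 and then 7.31, 5.00 and 3.77, at least 90.5-fold lower. SLC7A5, the light chain of the LAT1 carrier of large neutral amino acids, read 2.50, 2.43 and 3.07 and then 11.05, 11.13 and 11.57, at least 152-fold higher. Its heavy chain, SLC3A2, fell by 2.02 ± 0.31 log2 units (adjusted p = 9.56e-06). SLC38A2, a carrier of small neutral amino acids, rose at least 342-fold, and SLC1A5, a glutamine carrier, fell 17.9-fold. SLC16A1, which carries lactate and pyruvate, rose 9.18-fold.

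**Figure D3:**
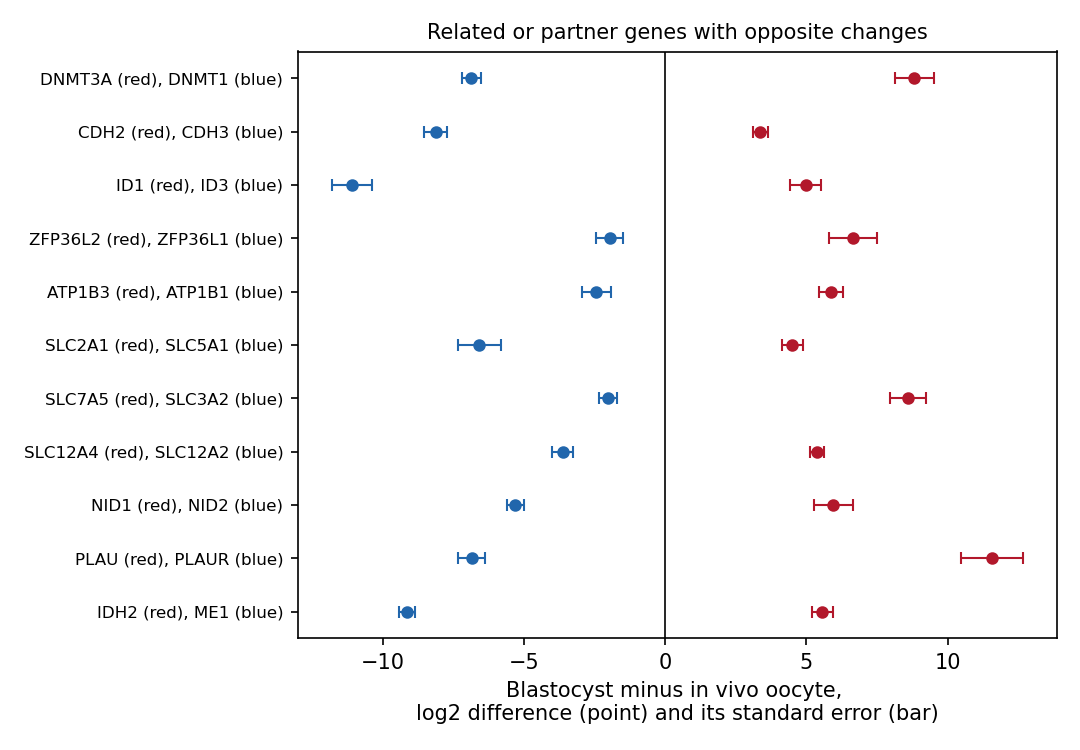
Difference between blastocyst and in vivo oocyte (log2, point) with its standard error from the fit (bar) for 11 pairs of related or partner genes, the member that rose in red and the one that fell in blue. The pairs were chosen after their values were seen, to show members of a family, complex or pathway with opposite changes; each of the 22 genes passed.

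Respiratory chain genes mostly rose on the deposited scale. Of 73 tested subunits of the respiratory chain and ATP synthase, 58 rose and 2 fell (median 1.96). On the spike-in scale 32 rose and 6 fell, and with the poly-A controls alone 19 and 6. UQCR11 and UQCRC1 of complex III rose 43.6-fold and 17.9-fold, and NDUFB10 of complex I 27.9-fold. CYC1, cytochrome c1, rose 22.6-fold. Of the falls both were of the cytochrome oxidase family: COX7A1 fell 18.4-fold and COX7A2L by 1.46 ± 0.26 log2 units.

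Tricarboxylic acid cycle genes gave 16 rises and 2 falls among 22 (median 1.76; 10 and 3 on the spike-in scale). Leaving out oocyte array 2, oocyte array 3 or blastocyst array 1 left 1 fall. IDH2, the mitochondrial isocitrate dehydrogenase, rose at least 34.5-fold, and SDHD, of succinate dehydrogenase, 15.7-fold. ME1, the cytosolic malic enzyme that yields NADPH, read 11.38, 12.13 and 11.73 and then 2.59, 2.63 and 2.65, at least 215-fold lower (adjusted p = 5.63e-15). Glycolysis and pyruvate genes gave 18 rises and 7 falls among 33 (median 0.91). That balance did not hold with other scales: 11 rose and 9 fell on the spike-in scale (median 0.07), and 9 and 10 with the poly-A controls alone (median -0.30). PFKL, the liver-type phosphofructokinase, rose at least 17.9-fold, PC, pyruvate carboxylase, at least 69.1-fold, and PDHB, of pyruvate dehydrogenase, 92-fold. LDHB, lactate dehydrogenase B, rose 8.17-fold, and LDHC, the germ cell form of that enzyme, fell at least 25.1-fold.

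Genes of the translation machinery mostly rose on the deposited scale. Of 63 tested cytosolic ribosomal protein genes, 59 rose and 0 fell by the brightest probe set of each gene (median 1.88). With the mean of each gene's probe sets, 58 rose and 1 fell. On the spike-in scale 29 rose and 0 fell (median 1.05), and with the poly-A controls alone 12 and 0. RPS9 rose 21.9-fold, RPL12 16.6-fold and RPL10A 13-fold. Many ribosomal protein genes have near-identical copies in the genome, so their probe sets can share signal. Of 43 tested translation factors 28 rose and 6 fell (median 1.36), against 14 and 6 on the spike-in scale. Aminoacyl-tRNA synthetases, which charge tRNAs, gave 21 rises and 1 fall among 27 (median 1.42), and 6 and 1 on the spike-in scale. YARS1 and QARS1, the tyrosine and glutamine enzymes, rose at least 38.5-fold and 33.7-fold, and RARS2, the mitochondrial arginine enzyme, fell 12.4-fold.

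Other housekeeping machinery depended on the scale. Of 65 tested mitochondrial ribosomal protein genes, 33 rose and 11 fell (median 1.08), against 14 and 14 on the spike-in scale and 8 and 15 (median -0.12) with the poly-A controls alone. Without oocyte array 3 or blastocyst array 1, 7 of them fell. Without oocyte array 2 and blastocyst array 1 together, 28 rose and 10 fell (median 0.62). MRPL12 rose 35.8-fold and MRPS34 at least 29.9-fold. Ribosome biogenesis gave 23 rises and 8 falls among 49 (median 1.07), with 15 and 9 on the spike-in scale and 9 and 10 on the poly-A controls alone (median -0.13). Without oocyte array 2 and blastocyst array 1 together it gave 21 and 9 (median 0.35). The proteasome gave 20 and 7 among 38 (median 0.87), with 9 and 9 on the spike-in scale and a median of -0.33 on the poly-A controls alone. PSMA1, a 20S core subunit, read 2.76, 7.96 and 2.77 and then 12.11, 12.79 and 12.83, at least 153-fold higher. Splicing factors gave 29 and 13 among 64 (median 0.53), and 13 and 16 on the spike-in scale (median -0.31). Heat shock proteins and chaperones gave 28 and 6 among 44 (median 1.05), 13 and 9 on the spike-in scale and a median of -0.15 on the poly-A controls alone. CCT6A, of the cytosolic chaperonin, rose at least 256-fold, DNAJB9, an endoplasmic reticulum chaperone, at least 107-fold, and HSPA5, the major chaperone there, 21.3-fold.

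**Figure D4:**
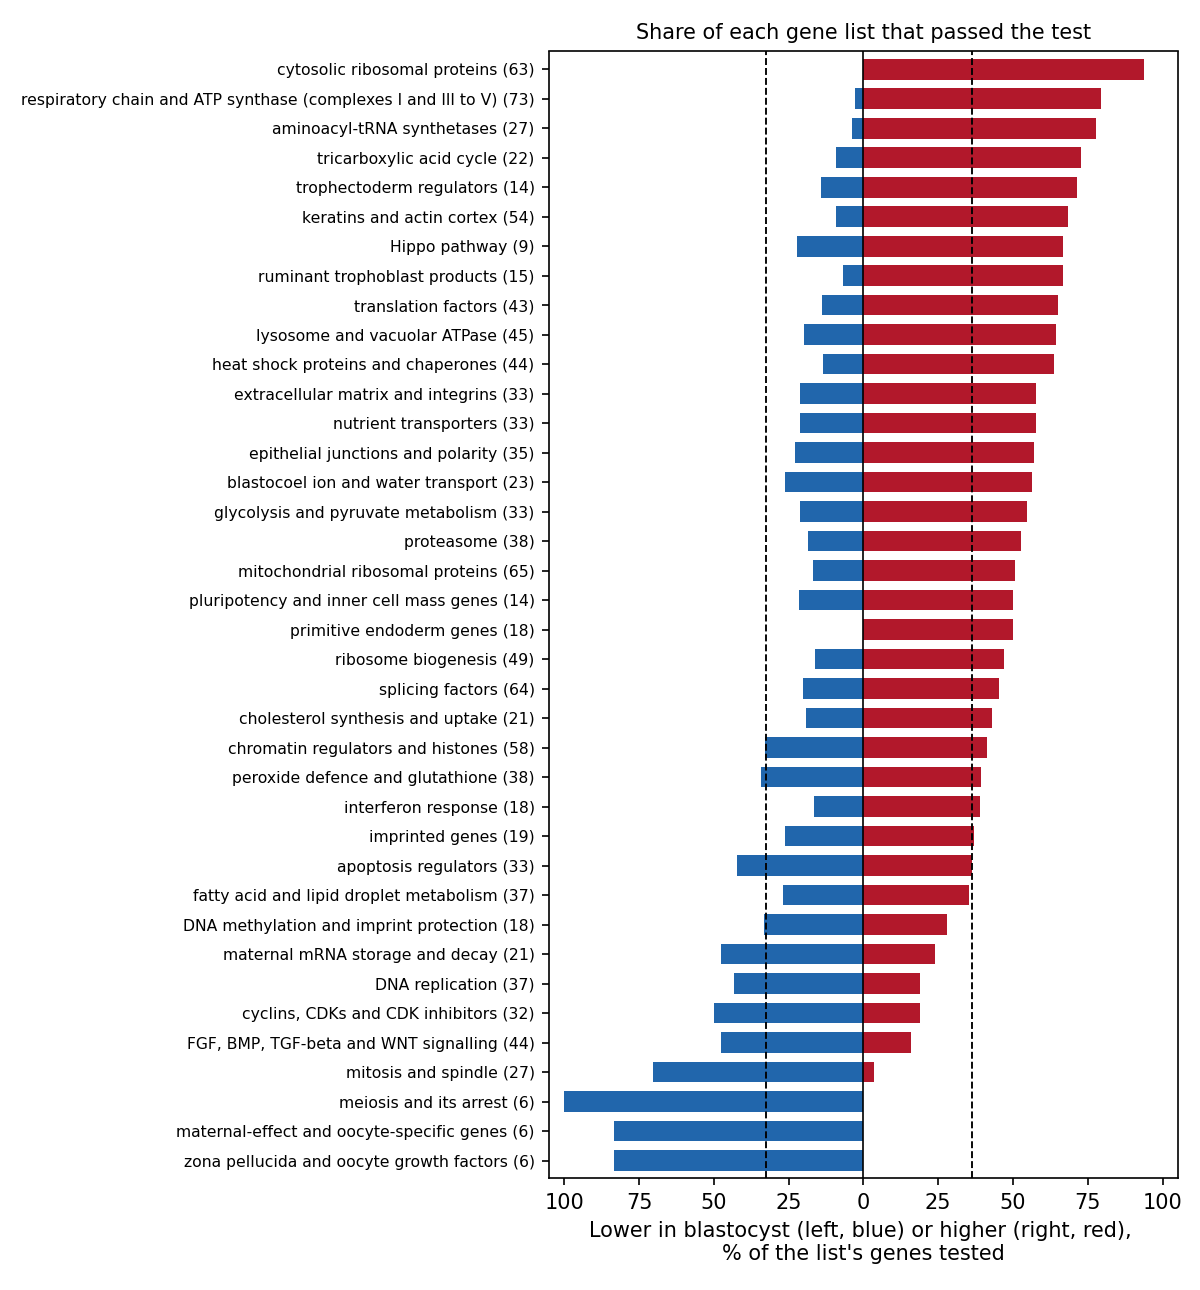
Share of the tested genes of each of 38 gene lists that passed at an adjusted p under 0.05, higher (red, right) or lower (blue, left) in the blastocyst, in percent; the number tested is in parentheses. Dashed lines mark the shares over all 7070 genes, 36.2% higher and 32.7% lower, and the counts are those of the deposited scale.

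Genes of cell division fell more often than they rose. Mitosis and spindle genes gave 19 falls and 1 rise among 27 (median -1.90). TACC3, a spindle protein that AURKA activates, read 15.45, 15.21 and 15.22 and then 10.66, 9.92 and 10.20, 32.7-fold lower. AURKA, Aurora kinase A, fell 14.4-fold, ESPL1, separase, 12.2-fold, and TPX2, PLK1 and CDC20 fell 5.78-fold, 6.03-fold and 5.81-fold. SPC24, of the kinetochore, was the rise, at 12.2-fold. All 7 genes lay above 4 on each of the 6 arrays.

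Cyclins, CDKs and their inhibitors gave 16 falls and 6 rises among 32 (median -0.54). CCNB1 and CCNB2, the mitotic B cyclins, fell 8.18-fold and 13.6-fold, and RB1, the retinoblastoma protein that restrains entry into S phase, at least 68.4-fold. CCND2 and CDK4, a G1 cyclin and its kinase, rose at least 43.8-fold and at least 38.1-fold, with oocyte array 2 the only oocyte array above 4 for each (8.11 and 6.46). DNA replication gave 16 falls and 7 rises among 37 (median -0.53). Without oocyte array 2, 4 of them rose, and on the spike-in scale 2. ORC5 and ORC2, of the origin recognition complex, fell 186-fold and 14.7-fold, TYMS, which makes thymidylate, 7.94-fold, and PCNA, the polymerase clamp, 3.15-fold. FEN1, the flap endonuclease, rose 11.1-fold.

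Writers of DNA methylation went opposite ways. Of 18 tested genes of DNA methylation and imprint protection, 5 rose and 6 fell (median -0.44; 2 and 7 on the spike-in scale). Their shares were 27.8% and 33.3%, against 36.2% and 32.7% over all genes. DNMT3A, a de novo methyltransferase, read 6.37, 4.55 and 4.04 and then 14.07, 13.67 and 13.66, 450.1-fold higher (adjusted p = 1.12e-09). DNMT1, the maintenance methyltransferase, read 12.42, 12.93 and 12.90 and then 5.47, 6.68 and 5.54, 116-fold lower (adjusted p = 2.18e-12). UHRF1, which brings DNMT1 to half-methylated sites, read 13.23, 13.53 and 13.35 and then 3.68, 3.03 and 2.79, at least 663-fold lower. The oocyte and blastocyst arrays were separate for the 3 genes. DNMT1 was also lower in the blastocyst than in the morula (mean 7.69, adjusted p = 0.00205). TDG, a glycosylase of active demethylation, rose at least 34.1-fold, and UHRF2, the paralogue of UHRF1, fell 16.5-fold. DNMT3B, a further de novo enzyme, read 2.69, 2.97 and 3.33 and then 3.75, 4.07 and 3.30 and did not pass (adjusted p = 0.154).

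Imprinted genes gave 7 rises and 5 falls among 19 (median 0.14; 4 and 5 with a median of -0.69 on the spike-in scale), shares of 36.8% and 26.3% against 36.2% and 32.7% over all genes. XIST, counted in this list, is the RNA that coats the inactive X chromosome; it read 2.53, 2.54 and 2.59 and then 11.38, 10.42 and 10.40, at least 106-fold higher. PLAGL1, a paternally expressed zinc finger factor, read 11.95, 12.74 and 12.56 and then 3.93, 2.97 and 3.04, at least 341-fold lower. MEST, a further paternally expressed gene, fell 34.6-fold, and NDN, necdin, rose 31.1-fold. Chromatin regulators and histones gave 24 rises and 19 falls among 58 (median 0.17; 14 and 22 with a median of -0.66 on the spike-in scale), shares of 41.4% and 32.8% that lay near those over all genes. CHD1, a remodeller of open chromatin, rose at least 69.8-fold, KDM6A, an H3K27 demethylase on the X chromosome, at least 23.4-fold, and H2AZ1, a variant histone, 92.9-fold. RNF2, the Polycomb ubiquitin ligase, fell 23.9-fold, and ASF1B, a histone chaperone, 34.3-fold.

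**Figure D5:**
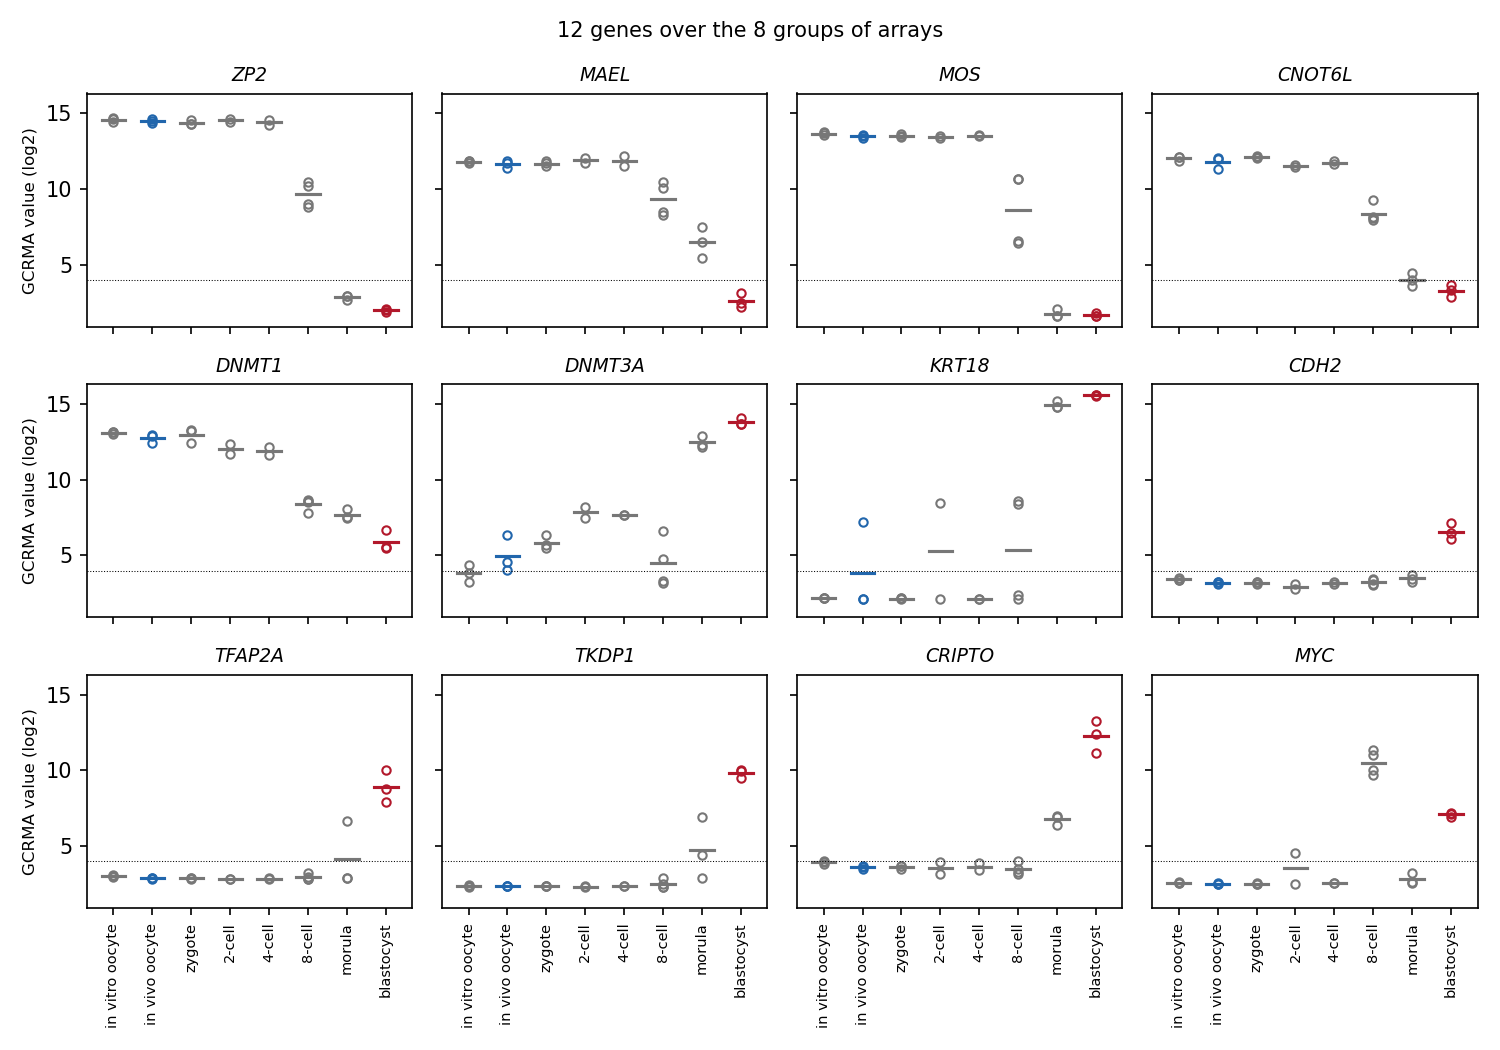
GCRMA log2 value on each array (circles) and group mean (lines) of 12 genes over the 8 groups of the series, in vivo oocyte in blue and blastocyst in red; the dotted line marks a value of 4. ZP2, MOS and CNOT6L were at or under 4.44 on every morula array, MAEL fell further from morula to blastocyst, and CDH2 was above 4 on the blastocyst arrays only.

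Signalling genes fell more often than they rose. Of 44 tested genes of FGF, BMP, TGF-beta and WNT signalling, 7 rose and 21 fell (median -0.64). LEF1 and TCF7, nuclear partners of beta-catenin, fell at least 50.6-fold and 20.3-fold. SMAD5 and SMAD3, transducers of BMP and of activin signals, fell at least 20.7-fold and 19.1-fold, and BMPR1A, a BMP receptor, 14.3-fold. Both ID1 and ID2, targets of BMP signalling, rose at least 28.6-fold and at least 41.7-fold, with ID2 at 7.70 on oocyte array 2. ID3 read 13.55, 13.57 and 13.90 and then 2.75, 2.52 and 2.53, at least 818-fold lower. In the Hippo pathway 6 of 9 tested genes rose and 2 fell (median 2.04; 3 and 2 on the spike-in scale). CCN1 and CCN2, targets of YAP, rose at least 85.4-fold and 8.15-fold, and STK3, an upstream kinase, fell 3-fold.

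Interferon response genes gave 7 rises and 3 falls among 18 (median 0.01; 5 and 4 with a median of -0.82 on the spike-in scale). Their shares were 38.9% and 16.7%, against 36.2% and 32.7% over all genes, so the share of rises lay near the background. IRF8, an interferon regulatory factor, fell 144-fold. MYD88, an adaptor of Toll-like receptors, fell 12.6-fold, and IRF3, which switches on type I interferon genes, rose 15.9-fold. ISG15, the ubiquitin-like product that interferon induces, read 2.02, 2.46 and 2.03 and then 1.97, 2.03 and 2.03, under 4 on all 6 arrays, and did not pass (adjusted p = 0.908). IFNT2, described above, was present on the same blastocyst arrays.

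Fatty acid and lipid droplet genes gave 13 rises and 10 falls among 37 (median 0.22; 9 and 13 with a median of -0.61 on the spike-in scale, 7 and 13 with the poly-A controls alone). These shares, 35.1% and 27.0%, lay near those over all genes. FASN, fatty acid synthase, rose 68-fold, SCD, the stearoyl desaturase, at least 51.4-fold, FADS2, a desaturase of polyunsaturated fatty acids, at least 62.9-fold, and ELOVL6, an elongase, at least 138-fold. PLIN3, a lipid droplet coat protein, rose at least 118-fold. LIPE, the hormone-sensitive lipase, fell at least 121-fold. Cholesterol genes gave 9 rises and 4 falls among 21 (median 0.58; 5 and 9 with a median of -0.26 on the spike-in scale), and without blastocyst array 2, 7 fell. With the mean of each gene's probe sets, 9 rose and 8 fell. CYP51A1, a late enzyme of the pathway, rose 11.3-fold and SQLE, squalene epoxidase, 14.8-fold. INSIG1, a feedback regulator of the pathway, fell 15.1-fold, and HMGCS1, HMG-CoA synthase 1, 2.87-fold.

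Peroxide defence and glutathione genes gave 15 rises and 13 falls among 38 (median 0.49; 10 and 14 with a median of -0.34 on the spike-in scale, 8 and 14 with the poly-A controls alone). Their shares of 39.5% and 34.2% lay near those over all genes. HMOX1, haem oxygenase 1, read 2.33, 3.16 and 2.33 and then 10.07, 10.42 and 8.78, at least 54.1-fold higher, and was higher than in the morula (mean 4.07, adjusted p = 0.000259). GPX1, a glutathione peroxidase, rose 35.8-fold, and TKT, transketolase of the pentose phosphate path, 49-fold. Lysosomal and vacuolar ATPase genes gave 29 rises and 9 falls among 45 (median 1.83; 13 and 10 with the poly-A controls alone). ATP6V1D, of the proton pump, rose 109-fold, CTSA, protective protein cathepsin A, at least 104-fold, and NEU1, the sialidase bound to it, at least 56.7-fold. ATP6V0A1, a membrane subunit of the pump, fell 25.3-fold. Apoptosis regulators gave 12 rises and 14 falls among 33 (median -0.37; 8 and 16 on the spike-in scale, 6 and 16 with the poly-A controls alone). Their shares were 36.4% and 42.4%, against 36.2% and 32.7% over all genes. DIABLO and BAK1, which act for cell death at mitochondria, rose at least 98.8-fold and at least 14.1-fold. XIAP, the caspase inhibitor that DIABLO displaces, fell at least 7.22-fold, and CASP1, the inflammatory caspase, read 12.82, 12.50 and 12.71 and then 2.64, 2.30 and 2.67, at least 409-fold lower.

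The same blastocyst arrays were also set against in vitro oocytes and against morulae. Against in vitro oocytes 2853 genes were higher (40.4%) and 2248 lower (31.8%). Against morulae 406 were higher (5.74%) and 266 lower (3.76%). Both balances moved with the scale. Among probe sets 4965 were higher and 4922 lower against in vitro oocytes, but 3526 and 5267 on the spike-in scale. Against morulae 771 were higher and 534 lower, but 165 and 812 on the spike-in scale, where the median difference was -0.86. Of the genes whose passed test against the morula is printed here, ASCL2 lost its call on that scale, and none turned direction. At the level of probe sets 1305 passed against morulae, but 795 without blastocyst array 1, 754 without morula array 2 and 840 without morula array 3. KRT18 had a mean of 2.17 in in vitro oocytes and 14.94 in morulae, and its difference between blastocyst and morula did not pass (adjusted p = 0.95). That test used the spread of all 8 groups, and the morula and blastocyst values of KRT18 did not overlap. With the spread of the morula and blastocyst arrays alone its limma adjusted p was 0.084. ZP2 had means of 14.58 and 2.88, and KPNA7 of 15.75 and 2.59. PLAU had a mean of 4.95 in in vitro oocytes, above the in vivo oocyte values, and of 12.50 in morulae. AQP3 had means of 9.02 and 12.83. DNMT3A had means of 3.85 and 12.46, and UHRF1 of 13.94 and 2.92. For each of these genes the morula mean was nearer to the blastocyst than to the oocyte.

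A gene can be read by several probe sets that disagree. Of 1591 genes with more than 1 probe set tested, 91 had probe sets that passed in both directions. CDK7, the CDK-activating kinase, was among them, and no other such gene is named here.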

How the data were processed

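The authors deposited log2 expression values per probe set, made with GCRMA 2.0.0 per the submitters' processing notes; the genome annotation and scanner settings are not given in the sources used here. GCRMA normally corrects background by probe sequence and brings arrays to a common distribution; values under 4 were read as near background. The 112 control probe sets were left out of the tests. A probe set was tested where it lay above 4 on at least 2 of the 23 arrays. limma 3.58.1 (R 4.3.3) was fitted on the values as deposited as a means model of 8 groups (15 residual degrees of freedom, eBayes with trend), and p-values were adjusted by Benjamini-Hochberg within each comparison over the 14571 probe sets. With 3 arrays against 3, an exact permutation test of 1 gene could not give a p below 0.1, so single genes rest on this fit. Data were also simulated with real means and spread over the 14571 probe sets, with a change given to a small part of them and none to the rest. There 93.9% of changes of 4 log2 units, 52.2% of 2 and 10.4% of 1 were recovered. The adjusted threshold is stricter where few probe sets change, and in the real comparison 64.6% passed. These shares therefore do not give the recovery of the real comparison.

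Probe sets were named through the platform annotation: 13292 have 1 symbol, 86 several and 10638 none. A gene was read from the probe set with 1 symbol and the highest mean over all arrays, which can hide a probe set that differs. Named genes are members of 42 gene lists and the 12 largest rises and 12 largest falls among genes whose arrays do not overlap, without provisional names. The members and the lists were chosen with earlier results of these data known. Of 1908 listed genes, 1426 are on the array. Replicate numbers did not pair the arrays: deviations of oocyte and blastocyst arrays of the same number correlated at -0.09, -0.07 and -0.04. The number of arrays limits the precision. Alternatives were other filters, centrings and estimates of the spread, a replicate block, an average over all probe sets of each gene, and leaving out each array. Sequences are not shown.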

Additional observations from a re-analysis of the deposited data

How the results depend on the processing

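The count of 9420 probe sets was 8827 to 9239 with any 1 of the 6 arrays left out and 8712 without oocyte array 2 and blastocyst array 1 together. It was 8527 with the spread of the 6 arrays alone and 7902 with the poly-A controls alone, and the other settings gave 8404 to 9510. The replicate block gave 9510, 10002 against in vitro oocytes and 1404 against morulae, and since the numbers did not pair the arrays it is given only here. The higher share of the calls was 49.8% as deposited and 33.3% on the spike-in scale. Against morulae 1305 probe sets passed, 754 to 1396 with any 1 array left out and 264 with the spread of those 6 arrays alone. The cause was not tested. With the spread of those 6 arrays alone DNMT1, HMOX1, PTGS2, STAR, TFAP2A and TKDP1 did not pass against morulae (adjusted p = 0.0602 to 0.118). Centring was the setting that moved most list counts: 23 of 84 by over 1.5 times on the spike-in scale and 31 of 84 with the poly-A controls alone, against 0 of 84 with the replicate block. Small changes are limited by signal near background and by 3 arrays a group.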

Other observations

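Some genes known from other tissues changed among the marker lists, and are named here after their values were seen. TNP1, a transition protein that packs sperm DNA, read 3.31, 2.86 and 3.20 on the oocyte arrays and 7.94, 7.94 and 8.36 on the blastocyst arrays, at least 16.9-fold higher (limma adjusted p = 5.51e-07). ODF2, known from sperm tails and from centrosomes, read 5.66, 4.08 and 6.03 and then 11.06, 10.22 and 10.50, 40.4-fold higher. The groups did not overlap for these genes. CYP19A1, the aromatase that makes oestrogen, read 2.22, 4.18 and 2.24 and then 6.13, 6.81 and 4.85, at least 3.66-fold higher (adjusted p = 2.94e-05). MSX1, a homeobox factor, read 15.19, 15.32 and 15.31 and then 11.35, 10.05 and 8.40, 40.5-fold lower. OLFM4, a secreted glycoprotein of epithelia, read 11.28, 8.64 and 9.20 and then 2.40, 2.36 and 2.37, at least 52.3-fold lower. Both MSX1 and OLFM4 were listed as markers of oviduct and uterine epithelium, and the part of such cells in these values was not tested.

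Further genes were above 4 on every blastocyst array and on no oocyte or morula array. SLC10A1, a bile acid carrier, read 2.84, 2.83 and 2.86 in oocytes, 3.95, 2.88 and 3.22 in morulae and 5.39, 4.48 and 6.72 in blastocysts. PTN, the growth factor pleiotrophin, read 2.73, 2.78 and 2.79, 2.95, 2.80 and 2.80 and 5.80, 4.06 and 4.63 in the same order. CA4, a membrane-bound carbonic anhydrase, read 2.13, 2.15 and 2.15, 2.18, 2.16 and 2.16 and 6.86, 6.33 and 8.17. They were chosen by that pattern, so no test against the morula is given. For SLC10A1 and PTN the rise from the oocyte did not pass with the poly-A controls alone.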
